A study of Mus musculus with 6 samples.

Results

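Myosin is the motor of the sarcomere, the contractile unit of striated muscle. Each motor is built from heavy chains, which hydrolyse ATP and pull on actin, and from essential and regulatory light chains that wrap the lever arm of the heavy chain. In mice the adult ventricle runs on the fast alpha heavy chain Myh6, while the slow beta heavy chain Myh7 belongs to the fetal heart and is a common marker of a stressed one. The light chains are also divided by chamber, with Myl2 and Myl3 in the ventricle and Myl7 and Myl4 in the atrium.

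The genes described are 9 named members of this machinery, out of 19938 genes with a named probe: the heavy chains Myh6, Myh7 and Myh7b, the essential light chains Myl1, Myl3 and Myl4, the regulatory light chains Myl2 and Myl7, and Mylk3, the cardiac kinase that phosphorylates the regulatory light chain. Members were taken by gene symbol, and each was measured by 1 probe, so no choice among probes was needed. For every member at least 18 of the 20 nearest named probes in probe order belong to genes on the member's own chromosome. The groups were 3 wild-type hearts and 3 cenpf knock-out hearts, all from untreated mice aged 12 months, with 1 Affymetrix array per heart. Cenpf encodes a large kinetochore protein that binds microtubules. For the strain, the deleted part of Cenpf and any promoter or Cre that limits the deletion to a cell type, nothing is given in the sources used here. The study's question was how knockout hearts differ from wild-type hearts.

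Values are on the log2 scale, so a difference of 1 is a doubling of signal, and they compare hearts for the same gene, not one gene with another. A background level of 6.35 was set from receptor genes of smell, taken as silent in heart, and all 9 members lay above it in every heart. The check gene, Cenpf, averaged 8.44 ± 0.36 in the wild-type group and 6.37 ± 0.29 in the knockout group (SD, n = 3). All 12 cardiomyocyte markers were above background, with list means of 12.6 to 12.8 in wild-type and 12.6 to 12.9 in knockout hearts. Knockout replicate 1 stood apart, with fibroblast markers 0.42 and macrophage markers 0.47 above the mean of all arrays and ventricular markers lower by -0.29. Wild-type replicate 3 stood nearer the knockout hearts than its group mates in Myl1, Myl7 and Mylk3, and limma's array weights gave these arrays the lowest weights, 0.532 and 0.539. For several genes below the difference is also given without one of these arrays. Such values are descriptions, since the arrays were picked partly on the values shown here. With wild-type replicate 3 left out, 293 of 21789 probes passed at an adjusted p under 0.05 (limma), against 6 with all arrays. A heart sample is a mixture, in which fewer cells of a type and less RNA per cell cannot be told apart.

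A microRNA is carried inside the span of each of the 3 heavy chain genes, on the same strand, and these are shown because their seeds tie the family together. The microRNAs of this family are known to act on repressors of slow myosin genes. RefSeq gives the mature forms on GRCm38.p6 as follows, 5′ to 3′, with the seed (bases 2 to 8) in capitals.
mmu-miR-208a-3p, within Myh6, chr14:54949072-54949093, minus strand: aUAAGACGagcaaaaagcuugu
mmu-miR-208b-3p, within Myh7, chr14:54975710-54975731, minus strand: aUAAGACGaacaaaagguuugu
mmu-miR-499-5p, within Myh7b, chr2:155622893-155622913, plus strand: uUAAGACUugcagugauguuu
The forms within Myh6 and Myh7 share the seed UAAGACG, and the form within Myh7b has UAAGACU, so all 3 share bases 2 to 7. The array has a named probe for Mir208a and for Mir499. The Mir208a probe averaged 5.39 ± 0.61 in wild-type hearts against 5.59 ± 0.72 in knockout hearts, and the Mir499 probe 5.28 ± 0.19 against 5.11 ± 0.35 (SD, n = 3). Both lay below the background level in each group, so these arrays do not resolve the microRNAs and only their host genes can be followed.

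Of the 9 members, 0 passed at an adjusted p under 0.05 (limma with Benjamini-Hochberg adjustment over 21789 probes), where 0.0275% of all probes did. At an unadjusted p under 0.05 there were 2, Myl1 and Myl7, where the share over all probes was 9.9%, or 4.66% counting only probes higher in the knockout hearts. These were also the 2 members whose groups did not overlap, with every knockout heart above every wild-type heart, as for 7.33% of all probes. No member had every knockout heart below every wild-type heart, as 7.47% of all probes did. A plain linear model gave 0 members at either threshold. The median difference of the members, knockout minus wild-type, was 0.053, against -0.0082 over all probes tested. The number of arrays limits the precision.

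**Figure D1:**
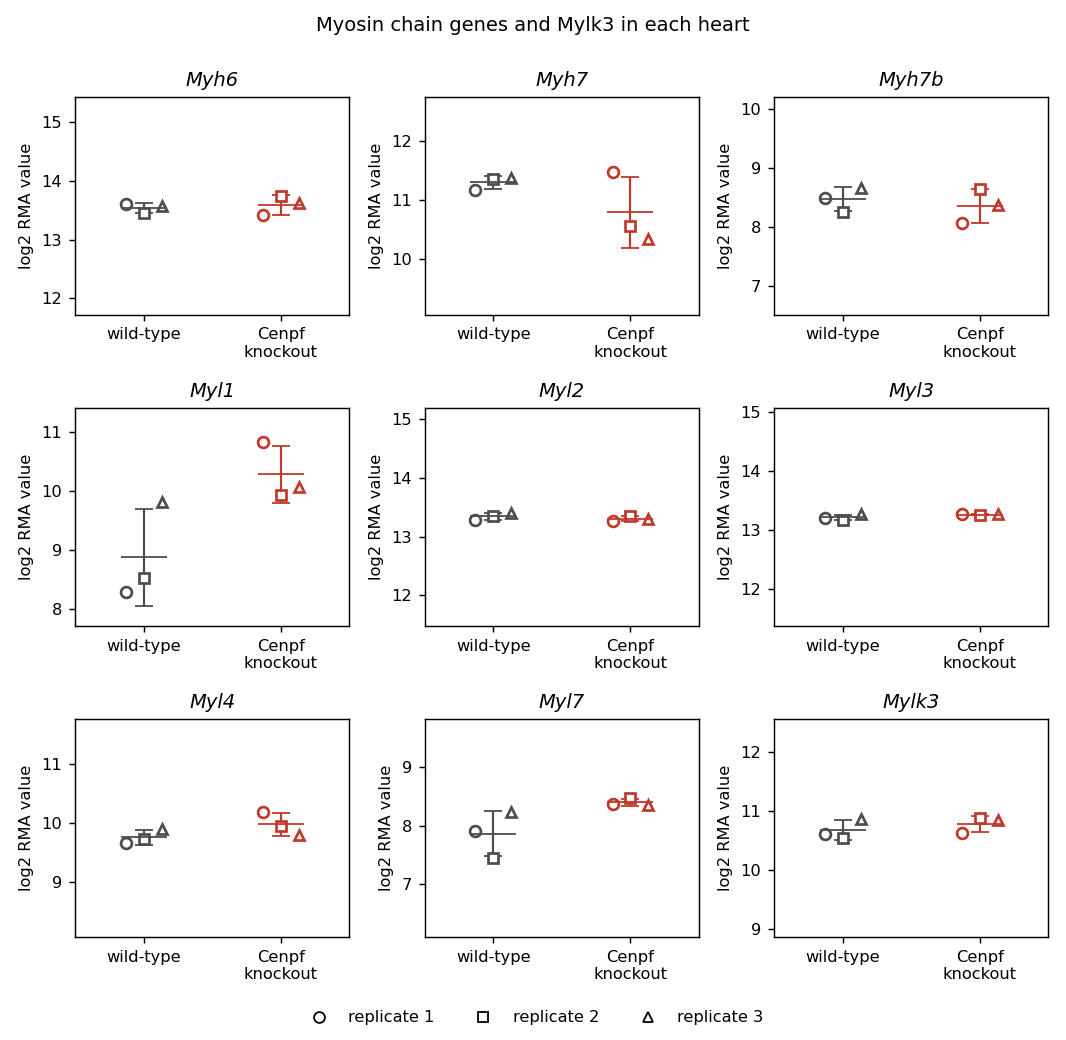
Each panel plots the log2 value of a gene in the 3 wild-type (grey) and 3 knockout (red) hearts, with symbols for the replicate number and a bar for the mean ± SD. All panels span the same number of log2 units; Myl1 and Myl7 show knockout hearts above all wild-type hearts, Myl2 and Myl3 are flat, and Myh7 is split within the knockout group.

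Among the heavy chains, Myh6 varied least and Myh7 most across the hearts. Myh6 stood at 13.60, 13.44 and 13.56 in wild-type replicates 1, 2 and 3, against 13.41, 13.74 and 13.61 in knockout replicates 1, 2 and 3, the order used throughout. The groups overlapped fully, with the lowest and the highest heart both in the knockout group. The difference was 0.05 ± 0.11 (SE, 95% interval -0.21 to 0.32, limma adjusted p = 0.902). That interval corresponds to 0.865 to 1.24 times the wild-type level.

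Myh7, the slow heavy chain, stood at 11.17, 11.37 and 11.38 across the wild-type group, against 11.48, 10.57 and 10.34 across the knockout group. Knockout replicate 1 was the highest of all 6 hearts, while knockout replicates 2 and 3 were the lowest, below every wild-type heart. The knockout hearts thus covered 1.15 log2 units and the wild-type hearts 0.21. The difference of the means was -0.51 ± 0.26 (SE, 95% interval -1.11 to 0.09, limma adjusted p = 0.556). Without knockout replicate 1 it was -0.85 (limma adjusted p = 0.187), and without knockout replicate 3 it was -0.28 (limma adjusted p = 0.835). No single value of the Myh7 difference describes the knockout group, since 1 heart lies on the other side of the wild-type hearts.

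The fibroblast and macrophage marker lists, like Myh7, were high in knockout replicate 1 and low in the other knockout hearts, and the ventricular list ran the opposite way. The fibroblast list's 10 measured genes, all above background, averaged 0.42, -0.36 and -0.24 from their mean in knockout replicates 1, 2 and 3, and 0.10, 0.29 and -0.21 in the wild-type replicates. Of the list's genes 1 was higher and 9 lower in the knockout hearts, with level ranges of 9.94 to 10.4 in wild-type and 9.80 to 10.6 in knockout hearts. The macrophage list averaged 0.47, -0.31 and -0.11 in the knockout replicates and -0.28, 0.03 and 0.20 in the wild-type replicates. The ventricular list averaged -0.29, 0.19 and 0.13 in the knockout replicates and between -0.08 and 0.05 in the wild-type replicates. Their part in the Myh7 values was not tested. By root mean square difference of centred values over the 6 arrays, among 14130 genes above background, the genes nearest to Myh7 were Lpcat2 (0.12), Apod (0.12), a lipid-binding apolipoprotein, and Lcn2 (0.12), a lipocalin that binds bacterial iron carriers. Myh7 itself lay 0.44 from its own mean by the same measure.

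Myh7b, the ancient slow-type heavy chain gene that hosts Mir499, stood at 8.50, 8.26 and 8.66 across the wild-type group, against 8.06, 8.65 and 8.37 across the knockout group. Knockout replicate 1 was lowest here, opposite to its place for Myh7, and the groups overlapped. The difference was -0.12 ± 0.17 (SE, 95% interval -0.50 to 0.27, limma adjusted p = 0.839). Its sign depended on 1 heart, being 0.03 without knockout replicate 1.

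The essential light chains gave the largest difference of the set. Myl1, which encodes the essential light chains of fast skeletal muscle, stood at 8.29, 8.53 and 9.81 across the wild-type group, against 10.84, 9.94 and 10.08 across the knockout group. Every knockout heart lay above every wild-type heart, but wild-type replicate 3 came within 0.12 of the lowest knockout heart. The means were 8.88 ± 0.82 and 10.28 ± 0.49 (SD, n = 3). The difference was 1.41 with a standard error of 0.39, or 2.65-fold with a 95% interval of 1.42 to 4.96-fold, and it did not pass the threshold (limma adjusted p = 0.391, unadjusted p = 0.00678). Only 0.17% of all probes had a larger difference in size, and only 0.174% had a larger SD over the 6 arrays. Without wild-type replicate 3 the difference was 1.88 and passed (limma adjusted p = 0.0311), the single setting of 17 in which any member did. Leaving out the wild-type heart nearest the knockout hearts widens the difference by itself. In that setting 293 of all probes passed, against 6 with all arrays. Across the 17 settings the difference ranged from 1.11 to 1.88 and its adjusted p from 0.0311 to 0.805.

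Other genes of fast skeletal muscle differed less than Myl1. Of 15 skeletal muscle markers, 12 were above background in at least 1 group, 9 were higher and 6 lower in the knockout hearts, and 0 passed at an adjusted p under 0.05 (limma). The list levels ranged from 6.93 to 6.98 in wild-type and from 6.91 to 7.04 in knockout hearts, and the median difference was 0.07. The fast heavy chain genes Myh1 and Myh4 were below background in both groups. Mylpf, the fast regulatory light chain, stood at 6.75, 6.75 and 6.75 across the wild-type group, against 6.69, 6.55 and 6.38 across the knockout group, lower in every one. Its difference was -0.21 ± 0.11 (SE, limma adjusted p = 0.543), opposite in sign to that of Myl1. Tnnc2, the fast troponin C gene, was the marker with the smallest p. It stood at 6.26, 6.26 and 6.51 across the wild-type group, against 6.67, 6.74 and 6.66 across the knockout group, higher in every one. Its difference was 0.35 (limma adjusted p = 0.412, unadjusted p = 0.0107), from 6.34, at the background level, to 6.69. Mybpc2, a fast skeletal gene of the list of myosin-binding proteins, also had the sign of Myl1, with a difference of 1.04 described with that list.

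The genes nearest to Myl1 over the 6 arrays were Pla2g2d (0.09), a secreted phospholipase, Pdk4 (0.17), a kinase that holds back pyruvate oxidation, and Lbp (0.19), the lipopolysaccharide-binding protein. For comparison, Myl1 lay 0.89 from its own mean by the same root mean square measure. Pla2g2d stood at 7.62, 8.06 and 9.12 across the wild-type group, against 10.15, 9.17 and 9.47 across the knockout group, with the same order of hearts as Myl1. None of the 3 is a sarcomere gene, and their differences of 1.33, 1.46 and 1.63 did not pass (limma adjusted p = 0.391, 0.297 and 0.368).

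Myl3, the ventricular essential light chain, was the steadiest member. It stood at 13.20, 13.18 and 13.27 across the wild-type group, against 13.27, 13.25 and 13.26 across the knockout group. The 6 values were within 0.1 of each other, and the difference was 0.04 ± 0.09 (SE, 95% interval -0.16 to 0.25, limma adjusted p = 0.893). The highest value in the table was 14.46, so Myl3, Myl2 and Myh6 sat near the upper end of the scale.

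Myl4, the atrial essential light chain, which the fetal ventricle also makes, stood at 9.65, 9.72 and 9.89 across the wild-type group, against 10.17, 9.95 and 9.79 across the knockout group. Knockout replicates 1 and 2 lay above all wild-type hearts, and knockout replicate 3 lay among them. The difference was 0.22 ± 0.13 (SE, 95% interval -0.07 to 0.51, limma adjusted p = 0.581), and 0.12 without knockout replicate 1.

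Among the regulatory light chains, the ventricular form differed little and the atrial form lay higher in every knockout heart. Myl2, the ventricular form, stood at 13.28, 13.34 and 13.41 across the wild-type group, against 13.26, 13.35 and 13.29 across the knockout group. The groups overlapped, with a difference of -0.04 and a standard error of 0.09 (95% interval -0.25 to 0.17, limma adjusted p = 0.903). Myl7, the atrial form, stood at 7.91, 7.46 and 8.23 across the wild-type group, against 8.37, 8.46 and 8.35 across the knockout group. The knockout hearts lay within 0.11 of each other, above all wild-type hearts, and wild-type replicate 2 was the lowest. The means were 7.86 ± 0.39 and 8.39 ± 0.06 (SD, n = 3), a difference of 0.53 with a standard error of 0.18, or 1.44-fold with a 95% interval of 1.08 to 1.92-fold. It did not pass (limma adjusted p = 0.454, unadjusted p = 0.0178, adjusted p from 0.0848 to 0.812 over the 17 settings). Without wild-type replicate 2 the difference was 0.33, and without wild-type replicate 3 it was 0.71. The gap between the highest wild-type and the lowest knockout heart was 0.12, against a wild-type spread of 0.77 from the lowest to the highest heart.

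**Figure D2:**
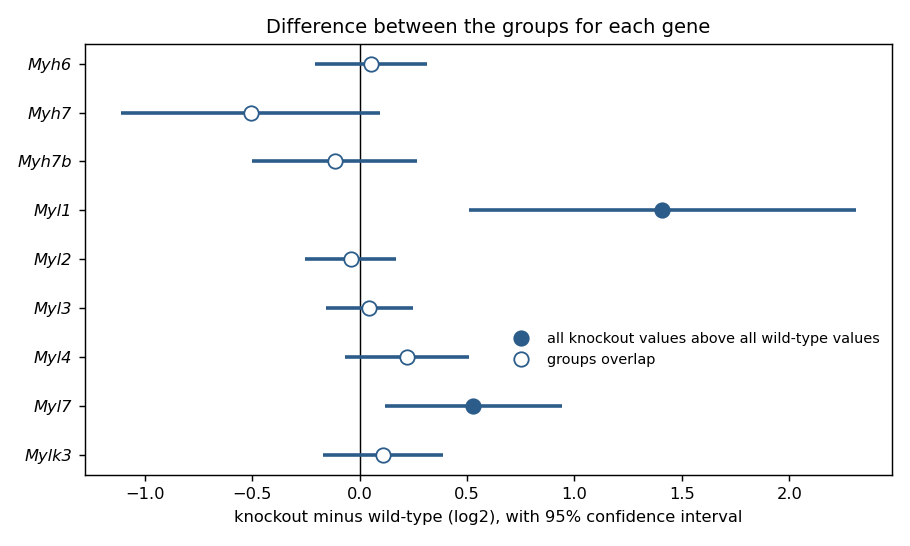
The plot gives the difference in log2 value, knockout minus wild-type, for each gene with its 95% confidence interval from limma. Filled points mark the genes whose groups did not overlap, Myl1 at 1.41 and Myl7 at 0.53, whose intervals lie above 0, and the interval of Myh7, -1.11 to 0.09, reaches across 0.

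As a list mean, markers of atrial cardiomyocytes other than the light chains lay higher in every knockout heart than in any wild-type heart. The gap was narrow, with knockout replicate 3 at 7.760 nearly level with wild-type replicate 3 at 7.756. The list levels ranged from 7.68 to 7.76 in wild-type and from 7.76 to 7.97 in knockout hearts, with deviations from their mean of -0.04, -0.11 and -0.03 against 0.18, 0.03 and -0.03. Of 10 measured genes, 6 were higher and 4 lower in the knockout hearts, and 0 had groups without overlap. The defining genes Sln and Bmp10, a sarcoplasmic reticulum peptide and an atrial growth factor, were below background in both groups. Nppa, the atrial natriuretic peptide, differed by 0.71 (limma adjusted p = 0.485, unadjusted p = 0.0364), or 0.99 with wild-type replicate 3 left out and 0.46 with knockout replicate 1 left out, and the potassium channel gene Kcnj3 by 0.32 (limma adjusted p = 0.677). Among 6 ventricular markers 2 were higher and 4 lower, with levels of 9.11 to 9.24 and 8.89 to 9.38. The amount of atrial tissue in each sample is not given, and its part in the Myl7 and Myl4 values was not tested.

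The genes nearest to Myl7 over the 6 arrays were Ring1 (0.08), a Polycomb protein gene, Vwa3a (0.08) and Nfe2l1 (0.09), a transcription factor gene, where Myl7 lay 0.35 from its own mean. Nfe2l1 stood at 10.60, 10.42 and 11.14 across the wild-type group, against 11.24, 11.37 and 11.31 across the knockout group, with wild-type replicate 2 lowest and knockout replicate 2 highest, as for Myl7. The members themselves were not candidates in these rankings, so Myl4 could not appear. Nppa was a candidate and was not among the nearest 3.

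Upstream sequence was searched for the CArG box, the site read by serum response factor in many muscle genes (a pair of C, 6 bases that are A or T, and a pair of G, on both strands). The windows were the 250 bases before each start in the RefSeq promoter table of GRCm38.p6. Of 12 windows of the 9 members, 2 held a match, that of Myl7 and that of Myl3, against 1.47% of all 32851 windows. Their sequences are shown because they carry the same kind of box beside different values, a higher level in all knockout hearts for Myl7 and a steady one for Myl3. The box is in capitals and the last base is next to the start.
Myl7, chr11:5898783-5899032, minus strand: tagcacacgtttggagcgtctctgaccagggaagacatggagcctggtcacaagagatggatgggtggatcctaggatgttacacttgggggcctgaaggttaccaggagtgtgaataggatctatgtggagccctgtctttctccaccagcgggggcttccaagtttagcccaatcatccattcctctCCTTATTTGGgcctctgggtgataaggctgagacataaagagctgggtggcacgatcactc
Myl3, chr9:110763428-110763677, plus strand: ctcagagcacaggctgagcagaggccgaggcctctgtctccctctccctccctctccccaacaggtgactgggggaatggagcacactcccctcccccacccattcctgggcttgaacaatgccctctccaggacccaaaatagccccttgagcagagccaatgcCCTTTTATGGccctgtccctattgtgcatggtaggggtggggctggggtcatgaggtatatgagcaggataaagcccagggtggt
The box ends 51 bases before the start in Myl7 and 75 bases before it in Myl3. A match is a description of the letters, and the other members' windows hold no such run. For Myl1 and Myl4 the table's start lies inside the gene's span, so other starts of these genes were not searched.

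Mylk3, the cardiac kinase of the regulatory light chain, stood at 10.61, 10.55 and 10.87 across the wild-type group, against 10.63, 10.88 and 10.85 across the knockout group. The groups overlapped, with wild-type replicate 3 level with knockout replicates 2 and 3. The difference was 0.11 ± 0.12 (SE, 95% interval -0.17 to 0.39, limma adjusted p = 0.784). Leaving out wild-type replicate 3 gave 0.20, and leaving out knockout replicate 1 gave 0.19 (limma adjusted p = 0.445 and 0.578). Of 9 measured genes for other light chain kinases and for myosin phosphatase, 5 were higher and 4 lower, and 0 passed at either threshold (limma). The largest differences were 0.25 for Mylk4, a muscle kinase (limma adjusted p = 0.782), and 0.09 for Mylk, the smooth muscle kinase (limma adjusted p = 0.787).

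**Figure D3:**
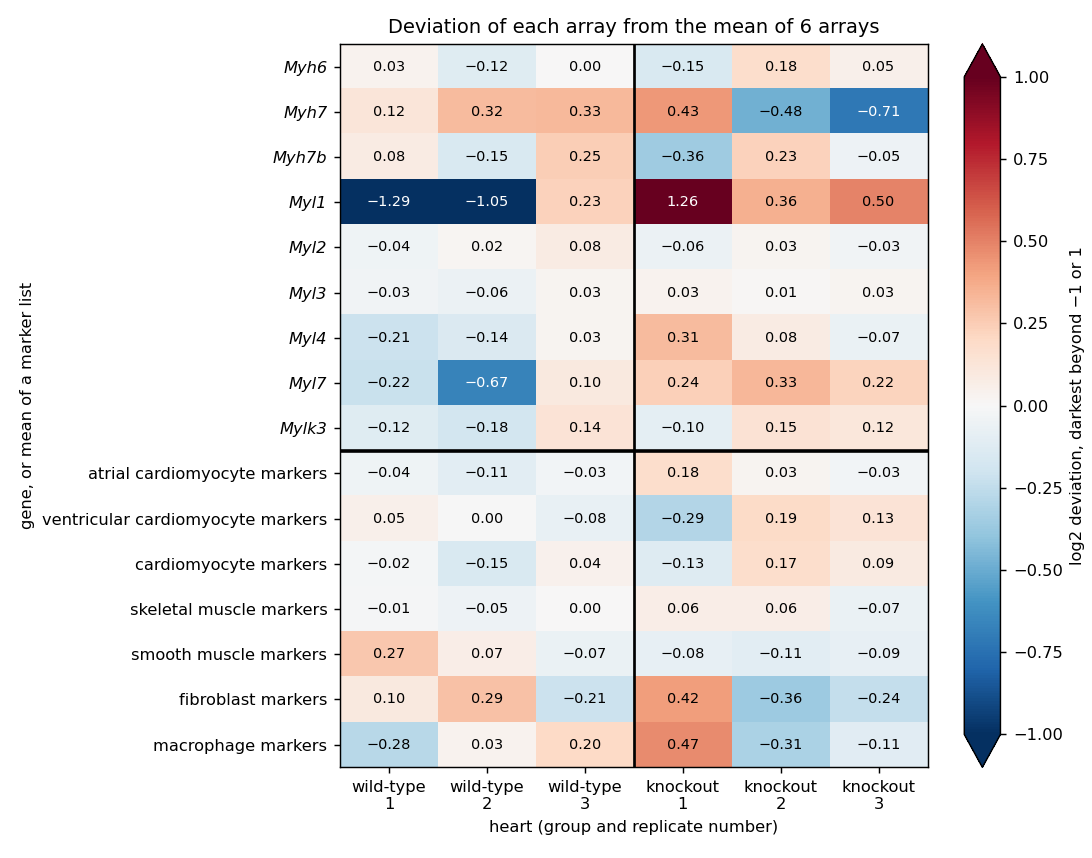
Each cell gives a heart's deviation, in log2 units, from the mean of the 6 arrays, for the 9 genes (above the line) and for the mean of 7 marker lists (below it). Myl1 runs from -1.29 in wild-type replicate 1 to 1.26 in knockout replicate 1, and in the knockout hearts Myh7 and the fibroblast list are high in replicate 1 and low in replicates 2 and 3.

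The other genes of the pathway were taken from fixed lists, and none of them passed at an adjusted p under 0.05 with all 6 arrays (limma). Skeletal and embryonic myosin chains, 9 measured, had 4 above background in at least 1 group, with 4 higher and 5 lower and a median difference of -0.05. Myl6b, an essential light chain of slow skeletal and non-muscle myosin, differed by -0.20 (limma adjusted p = 0.579). The heavy chains Myh1, Myh3, Myh4 and Myh13 all lay below background in both groups, so these arrays do not resolve them.

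Of 8 smooth muscle and non-muscle myosin chains, 6 were higher and 2 lower. In 3 all knockout hearts lay above all wild-type hearts, where 7.33% of all probes did so. Myh9, the non-muscle heavy chain IIA, stood at 9.43, 9.49 and 9.60 across the wild-type group, against 9.98, 9.85 and 9.69 across the knockout group, a difference of 0.33 ± 0.11 (SE, limma adjusted p = 0.446). Myh11, the smooth muscle heavy chain, differed by 0.32 (limma adjusted p = 0.455), also without overlap. The smooth muscle light chain Myl9 went the other way, at 11.16, 11.22 and 9.86 against 10.22, 10.14 and 10.41, a difference of -0.49 (limma adjusted p = 0.637). Wild-type replicate 3 stood below all other hearts for Myl9, and without it the difference was -0.94 and passed (limma adjusted p = 0.0213). Smooth muscle actin Acta2 had a like split, at 12.96, 12.76 and 11.07 against 11.07, 10.66 and 11.20, a difference of -1.28 (limma adjusted p = 0.455). Without wild-type replicate 3 the Acta2 difference was -1.88 and passed (limma adjusted p = 0.00699). Without wild-type replicate 1 it was -0.94 and did not pass (limma adjusted p = 0.724). Of 8 smooth muscle markers 3 were higher and 5 lower. Their list mean was lower in every knockout heart, at 9.12 to 9.14, than in any wild-type heart, at 9.16 to 9.49. The smooth muscle chains Myh11 and Myl9 differed in opposite directions. Myl12a, a non-muscle regulatory light chain, differed by 0.24 (limma adjusted p = 0.532).

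Of 5 myosin-binding proteins, 4 were higher and 1 lower. Mybpc2, the fast skeletal form of myosin-binding protein C, stood at 7.15, 7.63 and 8.30 across the wild-type group, against 9.02, 8.87 and 8.29 across the knockout group. Wild-type replicate 3 and knockout replicate 3 met at the same level, so the groups touched. The difference was 1.04 ± 0.29 (SE, limma adjusted p = 0.391, unadjusted p = 0.0073), and 1.34 without wild-type replicate 3 (limma adjusted p = 0.0603). Mybphl and Mybpc1 differed by 0.19 and 0.18 (limma adjusted p = 0.616 and 0.603).

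Among 8 genes of myosin folding and turnover, 4 were higher and 4 lower. An unadjusted p under 0.05 (limma) was found for 3, all of them muscle RING finger genes, where the share over all probes was 9.9%. Trim63, the ubiquitin ligase that degrades heavy chains in wasting muscle, stood at 9.76, 10.06 and 10.02 across the wild-type group, against 10.22, 10.43 and 10.46 across the knockout group. Its groups did not overlap, and the difference was 0.43 ± 0.12 (SE, limma adjusted p = 0.391). Trim54 differed by 0.69 and Trim55 by -0.44 (limma adjusted p = 0.500 and 0.483), with overlap in each, and without wild-type replicate 3 Trim54 differed by 1.08 and passed (limma adjusted p = 0.0158). The family thus had no common direction. The chaperone genes Hspa8 and Hsp90aa1 differed by 0.23 and 0.22 (limma adjusted p = 0.558 and 0.590). Each was taken by the probe with the highest mean of its 3 probes. The check of neighbouring probes covered only the members, not these probes.

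Thyroid hormone receptors, which turn Myh6 on and Myh7 off in the mouse heart, differed little between the groups. Thra differed by 0.08 with a standard error of 0.12 and Thrb by -0.07 ± 0.12 (SE, limma adjusted p = 0.850 and 0.868). Of the 10 measured genes of this axis, microRNA probes included, 6 were higher and 4 lower, with a median of 0.03 and 0 at an unadjusted p under 0.05.

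Markers of further cell types complete the fixed lists. Of 9 macrophage markers 4 were higher, of 7 lymphocyte markers 5, of 6 conduction system markers 2 and of 8 endothelial markers 6, with median differences of -0.03, 0.07, -0.13 and 0.07. All 6 adipocyte markers were lower, with a median of -0.27, and wild-type replicate 1 stood 0.51 above the mean of all arrays. Both measured erythrocyte markers were higher, Alas2 by 0.88 and Slc4a1 by 0.54 (limma adjusted p = 0.368 and 0.263). In the erythrocyte list wild-type replicate 3, at -0.04, came closest to the knockout hearts, at 0.28 to 0.49, and the 6 hearts stood in the same order as for Myl1. Both had an unadjusted p under 0.05, and without wild-type replicate 3 they differed by 1.12 and 0.62 (limma adjusted p = 0.0355 and 0.0494). Without wild-type replicate 1 Alas2 differed by 0.66 (limma adjusted p = 0.579). In the other lists of this paragraph the genes with an unadjusted p under 0.05 were Kdr with 0.43, Cntn2 with -0.28, Plin1 with -0.33 and Retn with -0.85 (limma adjusted p from 0.391 to 0.500). The adipocyte gene Adipoq differed by -0.66, and by -1.04 without wild-type replicate 3 (limma adjusted p = 0.0388). Dropping wild-type replicate 1 instead gave -0.35 for Adipoq, which did not pass (limma adjusted p = 0.791). The part of these lists in the members' values was not tested.

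**Figure D4:**
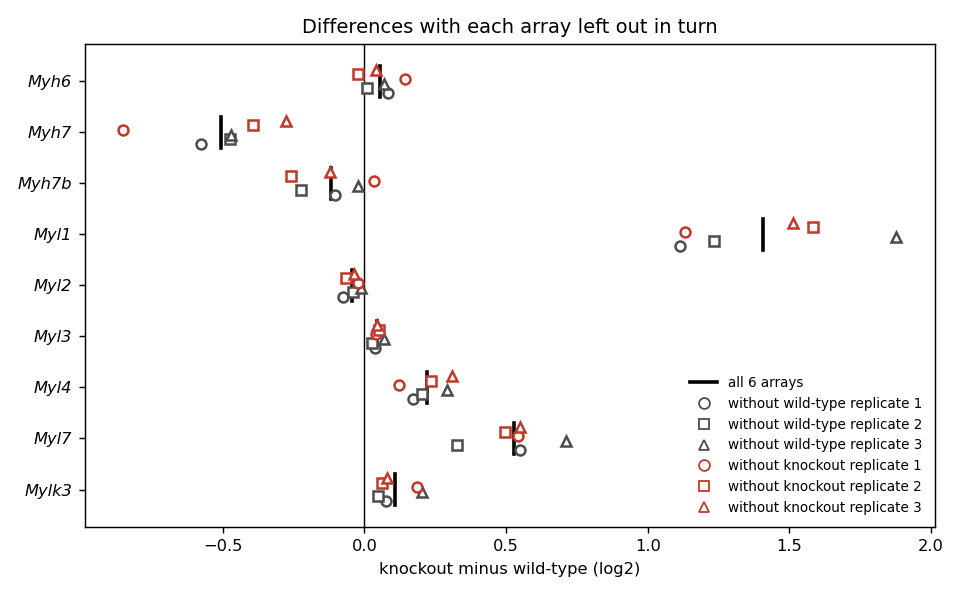
The plot gives the difference, knockout minus wild-type in log2 units, with all 6 arrays (black bars) and with each array left out in turn (symbols). Myl1 stays between 1.11 and 1.88 and Myl7 between 0.33 and 0.71, Myh7 stays below 0 from -0.85 to -0.28, and Myh6 and Myh7b each have 1 symbol on the other side of 0.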

How the data were processed

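The file holds log2 values made by the authors with RMA, which corrects background, normalizes between arrays and summarises probes; RMA and Partek 6.6 are named per the submitters' processing notes, with settings not given in the sources used here. Array medians lay from 6.92 to 6.97, and no further scaling was applied. Of 35556 probes, 21789 carry exactly 1 gene symbol in the platform annotation. The background level is the 95th percentile of the means of 1212 olfactory and vomeronasal receptor probes. All 21789 probes were fitted with limma 3.58.1 (lmFit, eBayes; R 4.3.3), two-sided, without covariates; p-values were adjusted by Benjamini-Hochberg over all of them. On simulated data of this comparison with 21789 probes, 200 of them changed in each run, 78.2% of 2-fold and 97% of 4-fold changes were recovered. Wrong calls averaged 9 a run over 20 runs. They arose beside the calls of the 200 changed probes, so they give no rate of wrong calls for the 6 probes that passed in the real data. The recovered shares are averages over the changed probes. They give no recovery rate for Myl1, since only 0.174% of probes had a larger SD over the 6 arrays. How shifts shared by many genes of an array would alter these shares was not tested.

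Members and lists were chosen with earlier results of these data known. Besides all 9 members, list genes were named at an unadjusted p under 0.05 or, for at most 2 more a list, by largest difference above background, and the 3 nearest genes for members with an SD of at least 0.3 over the arrays. Some lists named no second gene in the text. The labels call the hearts biological replicates. Shared replicate numbers were not treated as pairs. Figures used matplotlib 3.10.9.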

Additional observations from a re-analysis of the deposited data

How the results depend on the processing

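Over 17 alternatives, 151 of 153 differences of the 9 genes kept their direction. The exceptions came from leaving out an array, where Myh6 ranged from -0.023 without knockout replicate 2 to 0.14, and Myh7b from -0.26 to 0.032 without knockout replicate 1. Members passing numbered 0 with every alternative that kept all arrays, and 0 to 1 with an array left out, the 1 being Myl1 without wild-type replicate 3. Over all probes, 6 passed in the analysis reported. That count was 1 when every probe of the table was tested, 22 with the trend and robust variance model, 33 with array weights and 0 with a plain linear model, where 1791 had an unadjusted p under 0.05. It ranged from 1 to 293 with an array left out, the highest without wild-type replicate 3. With the replicate number as a block it was 11 and 0 members passed. Same-numbered hearts deviated with correlations of -0.114, -0.158 and -0.00309, where all pairs of a wild-type and a knockout heart lay between -0.158 and 0.139. Whether the numbers pair the hearts is not given in the sources used here, and these correlations cannot settle it. Signal limits the reading of the microRNA probes and of the heavy chains Myh1, Myh3, Myh4 and Myh13, which lay below background in both groups.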
